A study of Mus musculus with 33 samples.

Results

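The 8 genes described here, Sox1, Sox11, Pax6, Hes5, Nes, Ncam1, Tubb3 and Map2, are commonly read as signs of the neural lineage, from the first neural progenitors to neurons. They were chosen by name, with earlier results of these data known, and 8 of 8 were found among the 16336 genes of the expression table. RNA was sequenced from E14Tg2a cells, a wild-type mouse embryonic stem (ES) cell line of strain 129/Ola, and from dK9.1 and dK9.2, which were made from it with CRISPR/Cas9. Both carry on each allele a deletion between the enhancer and the promoter of Nanog, the pluripotency factor, which removes a region that bears the repressive histone mark H3K9me3. Each of them is 1 clone, so the libraries of a clone share its history. Day 0 cells were undifferentiated and grew in serum with LIF on gelatine. The cells of days 4, 6 and 8 came from embryoid body (EB) differentiation in serum without LIF, as aggregates in suspension to day 4 and plated again on gelatine to days 6 and 8. There were 33 libraries in 12 groups of line and day, with replicates 1, 2 and 3 in each group except on day 6, where each line had replicates 2 and 3.

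In the embryo, neurectoderm forms from epiblast cells that do not receive the signals for mesoderm and endoderm. SOX1 and PAX6 are transcription factors of the neural tube and its progenitors, SOX11 acts in progenitors that begin to become neurons, and HES5 is a repressor switched on by Notch signalling that keeps progenitors from differentiating. NES (nestin) is an intermediate filament of progenitors, NCAM1 an adhesion protein of neural cells, TUBB3 a beta-tubulin of young neurons, and MAP2 a protein that binds the microtubules of dendrites. Not all of them are restricted to neural tissue: Nes is also used by vessel and muscle precursors, Ncam1 by heart and mesoderm, and Sox11 by mesenchyme. EBs in serum usually form much mesoderm and endoderm, so these genes are read here as RNA of mixed cell populations.

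Promoter sequences are shown for the 3 genes that moved most clearly in the EBs, Sox11, Nes and Tubb3, and for the Notch target Hes5, which stayed low. RefSeq (GRCm38.p6, the assembly called mm10) gave windows for 7 of the 8 genes, with 2 start sites for Pax6. Each run is written 5′ to 3′ on the strand of the gene and ends before the first annotated exon. Capitals mark letters found by a search of both strands for the RBPJ core TGGGAA, the N-box CACNAG bound by HES proteins, the SOX core ACAAT and the E-box CAGCTG of proneural factors. Hes5 lies at chr4:154960673-154960922 on the plus strand, Sox11 at chr12:27342719-27342968 on the minus strand, Nes at chr3:87970843-87971077 on the plus strand and Tubb3 at chr8:123411303-123411423 on the plus strand.
Hes5: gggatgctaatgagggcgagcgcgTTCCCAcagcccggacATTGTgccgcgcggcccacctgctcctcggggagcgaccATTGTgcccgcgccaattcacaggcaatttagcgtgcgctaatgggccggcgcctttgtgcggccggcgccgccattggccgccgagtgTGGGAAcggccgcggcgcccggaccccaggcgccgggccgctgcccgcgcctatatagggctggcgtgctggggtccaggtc
Sox11: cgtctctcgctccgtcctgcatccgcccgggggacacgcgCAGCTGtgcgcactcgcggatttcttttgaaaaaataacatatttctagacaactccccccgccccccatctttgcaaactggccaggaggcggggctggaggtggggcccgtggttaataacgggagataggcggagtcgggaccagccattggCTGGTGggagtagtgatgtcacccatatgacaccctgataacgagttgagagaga
Nes: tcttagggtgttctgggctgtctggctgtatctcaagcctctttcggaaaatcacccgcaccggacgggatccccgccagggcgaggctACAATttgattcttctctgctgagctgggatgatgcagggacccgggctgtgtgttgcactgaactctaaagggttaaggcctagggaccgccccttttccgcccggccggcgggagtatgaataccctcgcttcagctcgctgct
Tubb3: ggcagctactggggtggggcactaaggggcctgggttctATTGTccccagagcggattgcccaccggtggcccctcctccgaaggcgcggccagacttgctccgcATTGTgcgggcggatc

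The Hes5 window held the RBPJ core at -226 and -82 bases from the RefSeq start, and the SOX core at -210 and -171, and overlaps an exon of Gm20421 on the other strand. The Sox11 window held the CAGCTG E-box at -210 and the N-box at -55. The SOX core stood at -161 before Nes and at -211 and -145 before Tubb3, with another at -95 outside the printed stretch. Such matches are common: of 32851 promoter windows, 25.6% held the RBPJ core, 42.5% the N-box, 31.0% the SOX core and 16.3% the CAGCTG E-box. They describe these windows and say nothing of binding in these cells.

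The values are TPM, the share of a library's transcripts that come from a gene, corrected for transcript length and scaled to a fixed total by the authors. Levels of different genes can thus be set side by side per length, but the depth behind a value is unknown. The libraries showed a course of differentiation: Nanog stood between 326 and 368 TPM in undifferentiated E14Tg2a cells and between 21.97 and 34.6 TPM on day 8, where the 6 libraries of the clones held 49.3 to 177 TPM. On day 8 replicate 3 was the highest library of each line for Sox1, Pax6 and Hes5, E14Tg2a included. Replicate 1 of undifferentiated E14Tg2a stood apart from replicates 2 and 3 for Sox1, Sox11, Pax6 and Nes. The same E14Tg2a library held 239 TPM summed over 14 extra-embryonic endoderm genes, against 29.3 and 39.3 TPM in replicates 2 and 3. In the clones on day 0 that sum lay between 24.8 and 40.8 TPM, except in replicate 1 of dK9.2 (125 TPM). The part of such cells in the day 0 values was not tested. The changes of these genes from day 0 to day 8 are given below with and without them.

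Levels differed widely between the 8 genes, and they did not move as one group. By its highest group mean, Tubb3 stood at percentile 80.0 of all genes, Nes at 70.0 and Sox11 at 60.9. Ncam1, Map2, Pax6 and Sox1 stood between percentiles 33.5 and 24.1. Hes5 reached 1 TPM in 3 of 33 libraries, with a highest value of 2.24 TPM, and stood at percentile 1.99. The ratio of the highest to the lowest group mean was 13.7 for Sox1, 13.2 for Sox11, 10.6 for Nes, 10.1 for Ncam1, 9.58 for Hes5, 9.29 for Tubb3, 5.12 for Pax6 and 3.04 for Map2. Sox11 and Nes were lowest on day 0, whereas Tubb3, named for neurons, was highest in undifferentiated ES cells. The 8 genes together are therefore not called a measure of neural cells here.

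**Figure D1:**
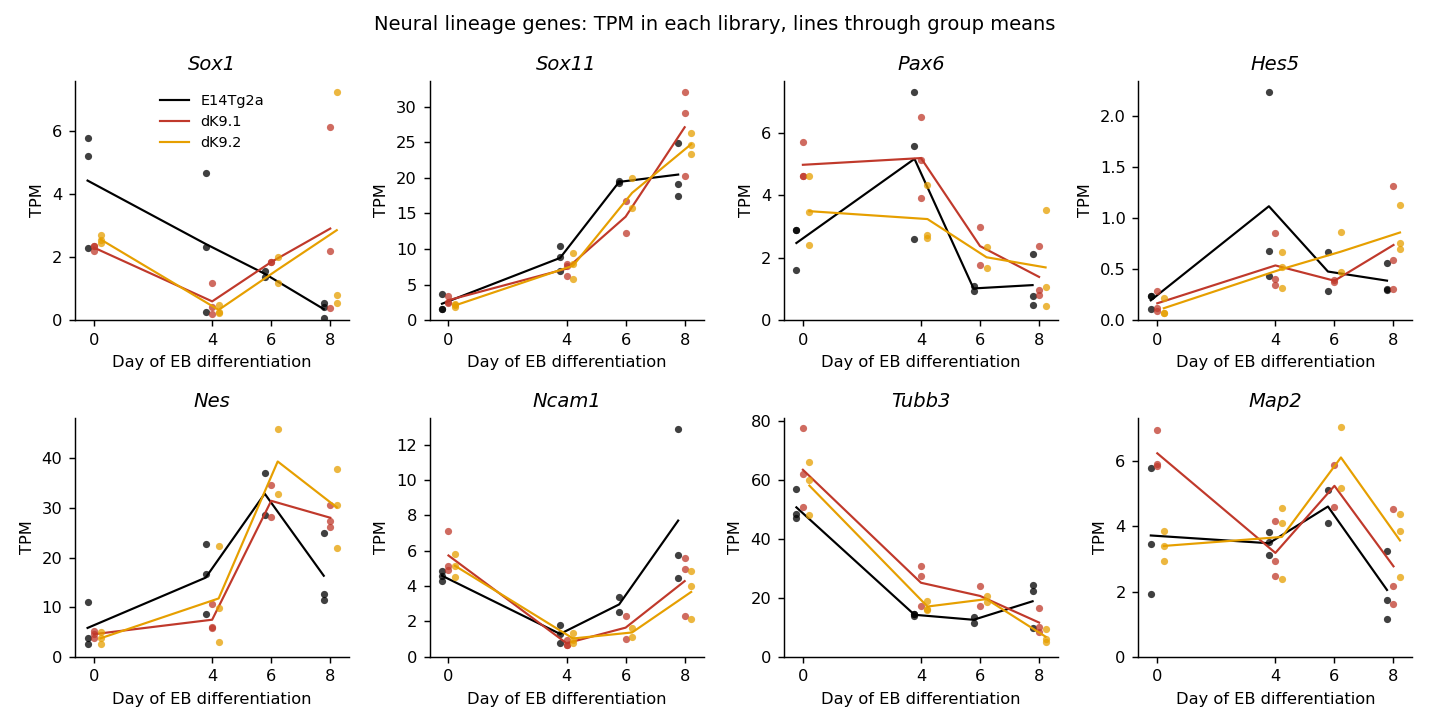
TPM (vertical axes, each from 0) of the 8 genes in every library against the day of EB differentiation, with points for libraries, lines through group means, and the 3 lines set slightly apart along the axis. Sox11 climbed from 1.59 to 3.70 TPM in E14Tg2a on day 0 to between 17.4 and 24.9 TPM on day 8, while Tubb3 was highest on day 0 in each line.

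Differences were tested with limma on log2(TPM + 1), a scale that understates changes of low genes such as Sox1, Pax6 and Hes5. A gene counts as higher or lower at an adjusted p under 0.05 (Benjamini-Hochberg over 16336 genes) with an absolute log2 fold change above 1. From day 0 to day 8, 4 of the 8 genes passed in E14Tg2a, where 26.9% of all genes did. Sox11 and Nes rose and Sox1 and Tubb3 fell, beside 15.9% of all genes called higher and 11% called lower. In dK9.1, 5 of 8 passed beside 20.9% of all genes, with Sox11 and Nes higher and Pax6, Tubb3 and Map2 lower. In dK9.2, 3 of 8 passed beside 22.2%, Sox11 and Nes higher and Tubb3 lower. Sox11, Nes and Tubb3 thus passed in each of the 3 lines. In RNA from whole cultures, fewer cells of a type and less RNA per cell cannot be told apart.

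Some of these changes had passed by day 4. On day 4 against day 0, 4 of 8 passed in E14Tg2a (7.74% of all genes), 3 of 8 in dK9.1 (5.39%) and 4 of 8 in dK9.2 (7.62%). In each line Sox11 was higher and Ncam1 and Tubb3 were lower, Nes was also higher in E14Tg2a and Sox1 was also lower in dK9.2. On day 6 against day 0, 3 of 8 passed in E14Tg2a (17.6%), 4 of 8 in dK9.1 (12.8%) and 4 of 8 in dK9.2 (17.5%), with Sox11 and Nes higher and Tubb3 lower in each line and Ncam1 lower in the clones. From day 4 to day 6, 2 of 8 passed in E14Tg2a (9.33%), 1 of 8 in dK9.1 (5.36%) and 2 of 8 in dK9.2 (9.9%). From day 6 to day 8, 1 of 8 passed in E14Tg2a (9.26%), 0 of 8 in dK9.1 (6.51%, with 4 of 8 at an unadjusted p under 0.05 in limma) and 1 of 8 in dK9.2 (5.21%). The comparisons of a line with its day 0 share the day 0 libraries. Some of these shares over all genes moved with single libraries. From day 4 to day 6 in dK9.1 the 875 genes called became 39 without replicate 2 of day 6 and 1496 without replicate 3 of day 6.

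Between the clones and E14Tg2a, few differences passed. Against the mean of both clones limma called 0 of 8 genes on day 4, beside 0.796% of all genes. The count was 0 of 8 on day 6 as well (1.62%) and 0 of 8 on day 8 (4.24%). At an unadjusted p under 0.05 there were 2 of 8 on day 4, 2 of 8 on day 6 and 4 of 8 on day 8. With single clones on day 8, Tubb3 passed as lower in dK9.2 (1 of 8, beside 5.2% of all genes) and 0 of 8 passed in dK9.1 (3.1%, with 3 of 8 at an unadjusted p under 0.05). Earlier, 0 of 8 passed in dK9.1 on day 4 (1.07%) and day 6 (1.62%), with 2 of 8 and 0 of 8 at an unadjusted p under 0.05, and 0 of 8 in dK9.2 on day 4 (0.116%) and day 6 (0.875%), with 1 of 8 on each day. How far each gene moved between days 0 and 8 was itself compared between the clones and E14Tg2a, and 1 of 8 genes passed, again Tubb3, beside 3.05% of all genes. The comparisons of dK9.1 and of dK9.2 share the E14Tg2a libraries. Between dK9.2 and dK9.1 limma called 0 of 8 genes on day 4 (0% of all genes), day 6 (0.00612%) and day 8 (0%), with 0, 0 and 1 of 8 at an unadjusted p under 0.05. Over all genes, the number called for the clones' mean on day 6 was 265, and 57 to 532 without single libraries.

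Undifferentiated cells were compared on their 9 libraries, with a call at an adjusted p under 0.05 and an absolute log2 fold change above 0.3 in the same direction in both clones. Of the 8 genes, 7 reached a mean of 1 TPM in one or more of the 3 lines, and Hes5 did not. None of the 7 passed in both clones. Of 14504 genes 0.0758% did, or 11 genes, which became 135 without replicate 1 of E14Tg2a and 1 without its replicate 3 or replicate 3 of dK9.2. In dK9.1 alone 1 of 7 passed (14.8% of all genes), Pax6, and 3 of 7 had an unadjusted p under 0.05 in limma. In dK9.2 alone 0 of 7 passed (0.0827%), and 0 of 7 had an unadjusted p under 0.05. Between dK9.2 and dK9.1 it was 0 of 7 (1.9%), with 1 of 7 at an unadjusted p under 0.05.

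**Figure D2:**
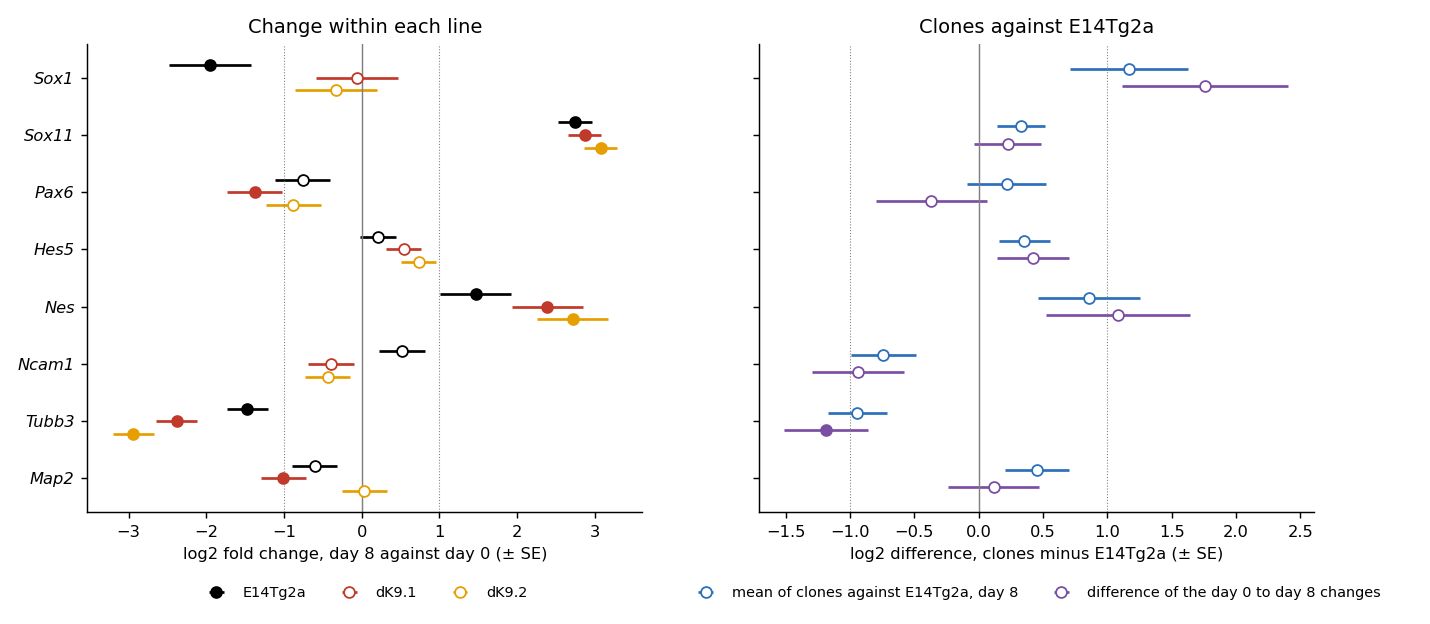
Log2 fold changes with standard errors (horizontal axes, on log2(TPM + 1)) of the 8 genes, from day 0 to day 8 in each line on the left, and of the clones against E14Tg2a on the right; filled points passed the test and dotted lines mark the size limit of 1. Sox11 and Nes lie to the right and Tubb3 to the left in each line, and on the right only the Tubb3 difference between the changes, -1.19, is filled.

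Sox1 (chr8:12395295-12400126, plus strand) codes for an early transcription factor of the neural plate. In E14Tg2a it was at 2.29, 5.21 and 5.79 TPM on day 0, at 0.261, 4.68 and 2.31 TPM on day 4, at 1.38 and 1.56 TPM on day 6 and at 0.426, 0.0753 and 0.543 TPM on day 8. The 3 day 8 libraries lay below the 3 of day 0. The log2 fold change from day 0 to day 8 was -1.96 (SE 0.53, adjusted p = 0.00251, limma), and -2.28 without replicate 1 of day 0 (adjusted p = 0.00182).

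The clones began near the lowest E14Tg2a value, with 2.20 to 2.36 TPM in dK9.1 and 2.44 to 2.71 TPM in dK9.2 on day 0. They held 0.207 to 1.17 TPM and 0.227 to 0.486 TPM on day 4. On day 8 dK9.1 was at 2.20, 0.385 and 6.13 TPM and dK9.2 at 0.790, 0.542 and 7.23 TPM, so that replicate 3 of each clone stood above every E14Tg2a library of days 4 to 8. Replicate 2 of each clone lay within the day 8 range of E14Tg2a, and replicate 1 above it. Sox1 in dK9.2 passed as lower on day 4 (log2 fold change -1.43, SE 0.53, adjusted p = 0.0390), but without any 1 of the 6 libraries the adjusted p lay between 0.0700 and 0.0913.

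From day 0 to day 8 the log2 change of Sox1 was -0.06 in dK9.1 (SE 0.53, adjusted p = 0.943) and -0.33 in dK9.2 (SE 0.53, adjusted p = 0.633). These values depended on single day 8 libraries. Without replicate 3 of day 8 they were -0.65 and -1.10, and without replicate 2 of day 8 they were 0.53 and 0.11, with adjusted p between 0.0693 and 0.901. In dK9.2 the value was also above 0 without replicate 1 of day 8 (0.0011). The difference between the clones' mean and E14Tg2a on day 8 was 1.17 (SE 0.46, adjusted p = 0.0725). It passed without replicate 2 of dK9.1 (1.46, adjusted p = 0.0161) or of dK9.2 (1.39, adjusted p = 0.0336), and was 0.87 and 0.78 without replicate 3 of dK9.1 or of dK9.2 (adjusted p = 0.173 in each). The difference between the changes was 1.76 (SE 0.65, adjusted p = 0.0996), and 2.06 without replicate 2 of dK9.1 on day 8 (adjusted p = 0.0303). On day 0 Sox1 differed from E14Tg2a by -0.65 in dK9.1 (SE 0.25, adjusted p = 0.106) and by -0.54 in dK9.2 (SE 0.25, adjusted p = 0.536). Without replicate 1 of E14Tg2a it passed as lower in both clones (-0.98, adjusted p = 0.00477, and -0.87, adjusted p = 0.0422), and without replicate 3 of E14Tg2a the differences were -0.45 and -0.34 (adjusted p = 0.295 and 0.857).

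Pax6 (chr2:105668900-105697364, plus strand) is a progenitor factor of forebrain, eye and spinal cord. E14Tg2a held 1.62, 2.89 and 2.90 TPM on day 0, then 2.61, 7.32 and 5.57 TPM on day 4, 0.928 and 1.10 TPM on day 6 and 0.470, 0.785 and 2.11 TPM on day 8. Its highest mean was thus on day 4. The fall from day 4 to day 6 passed (log2 fold change -1.53, SE 0.40, adjusted p = 0.00649), but not without replicate 2 of day 6 (-1.47, adjusted p = 0.0756). From day 0 to day 8 it changed by -0.76 in E14Tg2a (SE 0.35, adjusted p = 0.0677), by -1.07 without replicate 3 of day 8 (adjusted p = 0.0188) and by -0.95 without replicate 1 of day 0 (adjusted p = 0.0433).

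In dK9.1 Pax6 was at 4.62, 5.70 and 4.61 TPM on day 0, above the 3 E14Tg2a libraries, and dK9.2 at 2.41, 3.46 and 4.602 TPM overlapped with E14Tg2a and lay just below dK9.1. The share of all genes with such a gap for dK9.1 alone was not counted. For both clones together, 0 of 8 genes lay wholly above or below E14Tg2a on day 0 (5.17% and 2.75% of all genes). The day 0 difference of Pax6 in dK9.1 was 0.80 (SE 0.23, adjusted p = 0.0412). Without any 1 library of E14Tg2a or dK9.1, or without replicate 2 of dK9.2, the adjusted p was 0.0610 to 0.142. It was 0.152 in the fit of all 33 libraries. For dK9.2 the difference was 0.37 (SE 0.23, adjusted p = 0.647).

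On day 6 the clones held 1.67 to 2.97 TPM, all above the 2 E14Tg2a libraries, as 12.8% of all genes did, and the difference did not pass (0.65, SE 0.38, adjusted p = 0.404). By day 8 the groups overlapped, at 0.803 to 2.38 TPM in dK9.1 and 0.455 to 3.54 TPM in dK9.2. From day 0 to day 8 Pax6 fell in dK9.1 (-1.38, SE 0.35, adjusted p = 0.00214), and by -1.66 without replicate 3 of day 8. In dK9.2 it changed by -0.88 (SE 0.35, adjusted p = 0.0402), under the size limit, and passed without replicate 3 of day 8 (-1.34, adjusted p = 0.00248) or replicate 1 of day 0 (-1.06). From day 4 to day 6 the change in dK9.1 was -0.88 (adjusted p = 0.123).

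Sox11 (chr12:27334264-27342574, minus strand), of the SOX group that promotes neuronal differentiation, rose up to day 6 and then stayed level in E14Tg2a. E14Tg2a held 3.70, 1.60 and 1.59 TPM on day 0, 6.92, 10.5 and 8.81 TPM on day 4, 19.3 and 19.6 TPM on day 6 and 24.9, 19.1 and 17.4 TPM on day 8. No library of a later day was as low as any of day 0. The log2 fold change from day 0 was 2.69 on day 6 (SE 0.24, adjusted p = 5.52e-09) and 2.75 on day 8 (SE 0.21, adjusted p = 9.64e-11), or 2.98 and 3.03 without replicate 1 of day 0, while day 8 differed from day 6 by 0.06 (SE 0.24, adjusted p = 0.908). The rise from day 4 to day 6 was 1.09 (SE 0.24, adjusted p = 0.00191), and 0.95 without replicate 1 of day 4, under the size limit.

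In the clones Sox11 went from 2.45 to 3.40 TPM in dK9.1 and 1.81 to 2.20 TPM in dK9.2 on day 0 to 29.1, 32.1 and 20.2 TPM and 23.3, 26.2 and 24.6 TPM on day 8. The changes were 2.87 (SE 0.21, adjusted p = 1.27e-10) and 3.07 (SE 0.21, adjusted p = 2.53e-11). On day 8 the clones' mean differed from E14Tg2a by 0.33 (SE 0.19, adjusted p = 0.232), and the libraries overlapped. From day 4 to day 6 it rose in dK9.2 by 1.14 (SE 0.24, adjusted p = 0.00108), and by 0.97 without replicate 1 of day 4 or 0.98 without replicate 3 of day 6.

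Hes5 (chr4:154960923-154962371, plus strand) is the Notch target whose promoter is printed above. It was near the floor of the table, at 0.109 to 0.241 TPM on day 0 and 0.295, 0.301 and 0.565 TPM on day 8 in E14Tg2a. On day 4 the E14Tg2a libraries held 0.435, 2.24 and 0.679 TPM, so that the mean of 1.12 ± 0.978 TPM (SD, n = 3) rested on replicate 2. The day 4 change from day 0 was 0.73 (SE 0.23, adjusted p = 0.0189), under the size limit.

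In the clones Hes5 was at 0.591, 0.308 and 1.31 TPM in dK9.1 and 0.758, 0.694 and 1.13 TPM in dK9.2 on day 8. The change from day 0 was 0.54 in dK9.1 (SE 0.23, adjusted p = 0.0525) and 0.73 in dK9.2 (SE 0.23, adjusted p = 0.00932), below the size limit on this scale. Without replicate 3 of day 8, the highest library of each clone, it was 0.31 in dK9.1 (adjusted p = 0.291) and 0.63 in dK9.2 (adjusted p = 0.0470). With a pseudocount of 0.1, which weighs such low values more, the changes were 1.55 (adjusted p = 0.0146) and 2.19 (adjusted p = 0.00087), and both passed.

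Nes (chr3:87971078-87980451, plus strand), the progenitor filament nestin, rose with Sox11 up to day 6. In E14Tg2a it was at 11.1, 3.75 and 2.62 TPM on day 0, 8.62, 16.6 and 22.7 TPM on day 4, 28.6 and 37.1 TPM on day 6 and 24.9, 12.6 and 11.4 TPM on day 8. Both day 6 libraries lay above every library of the other days, and replicate 1 of day 0 overlapped day 4. The log2 fold change from day 0 was 2.50 on day 6 (SE 0.51, adjusted p = 0.000343) and 1.47 on day 8 (SE 0.46, adjusted p = 0.00763). Without replicate 1 of day 0, the highest of its group, the changes to days 4, 6 and 8 were 1.94, 3.02 and 1.98. The day 8 call was lost without replicate 1 of day 8 (1.14, adjusted p = 0.0557) or replicate 3 of day 0 (1.11, adjusted p = 0.0616). The day 4 change of 1.42 (SE 0.46, adjusted p = 0.0225) was lost without replicate 2 of day 0 (1.26) or of day 4 (1.35) and without replicate 3 of day 0 (1.07) or of day 4 (1.14). It was also lost when only the libraries of these 2 groups entered the fit (adjusted p = 0.0695).

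In the clones Nes stayed high to day 8. In dK9.1 it went from 3.79 to 5.26 TPM on day 0 to 34.6 and 28.2 TPM on day 6 and 27.4, 26.1 and 30.5 TPM on day 8. In dK9.2 it went from 2.52 to 4.96 TPM to 32.7 and 46.0 TPM and to 37.9, 21.8 and 30.6 TPM. The changes to day 8 were 2.39 (SE 0.46, adjusted p = 0.00011) and 2.72 (SE 0.46, adjusted p = 2.03e-05), and replicate 1 of E14Tg2a on day 8 reached into the range of dK9.2. The clones' mean was not shown to differ from E14Tg2a on day 8 (0.86, SE 0.40, adjusted p = 0.134), nor were the changes from day 0 (1.08, SE 0.56, adjusted p = 0.257, and 0.57 without replicate 1 of undifferentiated E14Tg2a). From day 4 to day 6 Nes rose by 1.98 in dK9.1 (SE 0.51, adjusted p = 0.0103) and by 1.98 in dK9.2 (SE 0.51, adjusted p = 0.00513). These calls were lost without replicate 2 of dK9.1 on day 6 (1.83, adjusted p = 0.212) and without replicate 3 of dK9.2 on day 6 (1.74, adjusted p = 0.0711), and the latter also with only the compared libraries in the fit (adjusted p = 0.0658).

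Ncam1 (chr9:49502136-49798925, minus strand) codes for the neural cell adhesion molecule. In E14Tg2a it dipped and came back, with 4.32, 4.87 and 4.59 TPM on day 0, 0.772, 1.81 and 1.30 TPM on day 4, 2.55 and 3.38 TPM on day 6 and 4.45, 12.9 and 5.77 TPM on day 8. The day 4 libraries lay below all others. The fall to day 4 was -1.31 on the log2 scale (SE 0.29, adjusted p = 0.00159), and day 8 differed from day 0 by 0.52 (SE 0.29, adjusted p = 0.130), or by 0.12 without replicate 2 of day 8 (adjusted p = 0.745). The rise from day 6 to day 8 was 1.02 (SE 0.33, adjusted p = 0.0227), and was lost without replicate 2 of day 6 (0.87) or of day 8 (0.62, adjusted p = 0.171) and without replicate 3 of day 6 (1.17, adjusted p = 0.0689). It was 0.95 after rescaling by median ratios and had an adjusted p of 0.114 with only the compared libraries in the fit.

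Ncam1 also dipped in the clones, whose day 8 means were 4.28 ± 1.73 TPM in dK9.1 and 3.67 ± 1.38 TPM in dK9.2 against 7.71 ± 4.56 TPM in E14Tg2a (SD, n = 3). Genes of vessel and blood and of mesoderm were high in the same E14Tg2a library as Ncam1. Replicate 2 of E14Tg2a on day 8, with the 12.9 TPM of Ncam1, held 4698 TPM summed over the vessel and blood list, against 1132 and 1073 TPM in replicates 1 and 3, and 2339 TPM over the mesoderm list, against 1061 and 1139 TPM. Replicate 2 was also the highest of each clone in Ncam1 and in both sums on that day. The heart muscle sum was highest in replicate 3 of E14Tg2a (336 against 232 TPM in replicate 2), but in replicate 2 of each clone. The crest and glial sum was highest in replicate 2 of each line, at 148 TPM in E14Tg2a. The part of these cells in the Ncam1 values was not tested. dK9.1 held 5.15, 7.13 and 4.92 TPM on day 0, 0.652, 0.671 and 0.975 TPM on day 4, 2.29 and 1.01 TPM on day 6 and 4.97, 5.57 and 2.31 TPM on day 8. dK9.2 held 5.14, 5.79 and 4.53 TPM, 1.36, 0.952 and 0.798 TPM, 1.13 and 1.63 TPM, and 2.17, 4.87 and 3.98 TPM. On day 6 the 4 clone libraries lay below both E14Tg2a libraries, as for 19.6% of all genes, and the difference of -0.68 did not pass (SE 0.31, adjusted p = 0.254). In the clones Ncam1 fell to day 4 by 1.92 in dK9.1 and by 1.60 in dK9.2 on the log2 scale (adjusted p = 3.54e-05 and 0.000187), and was still lower on day 6 (-1.37 in each, adjusted p = 0.00216 and 0.00149). The day 6 call in dK9.1 was lost without replicate 3 of day 6 (-1.02, adjusted p = 0.0647).

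The change of Ncam1 from day 6 to day 8 was 0.98 in dK9.1 (adjusted p = 0.0418) and 0.94 in dK9.2 (adjusted p = 0.0560), under the size limit. On day 8 the clones' mean differed from E14Tg2a by -0.74 (SE 0.25, adjusted p = 0.0392), also under the limit. Without replicate 1 of E14Tg2a it passed (-1.02, adjusted p = 0.00939), and without replicate 2 of E14Tg2a it was -0.34 (adjusted p = 0.467). The difference between the changes from day 0 to day 8 was -0.94 (SE 0.36, adjusted p = 0.113), -1.21 without replicate 1 of E14Tg2a on day 8 (adjusted p = 0.0359) and -0.54 without replicate 2 of E14Tg2a on day 8 (adjusted p = 0.458).

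Tubb3 (chr8:123411424-123422015, plus strand) codes for the beta-tubulin used to mark young neurons. It lies within Gm20388, a readthrough gene on the same strand that was counted at group means of 5.22 to 12.2 TPM, so the split of reads between them is uncertain. E14Tg2a held 48.3, 46.8 and 56.7 TPM on day 0, 13.8, 14.5 and 14.4 TPM on day 4, 13.6 and 11.5 TPM on day 6 and 24.3, 22.4 and 9.73 TPM on day 8. Every library of a later day lay below the 3 of day 0. The log2 fold change from day 0 was -1.76 on day 4 (SE 0.27, adjusted p = 2.69e-05), -1.93 on day 6 (SE 0.30, adjusted p = 1.31e-05) and -1.47 on day 8 (SE 0.27, adjusted p = 3.89e-05).

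The clones began with 50.8, 61.8 and 77.3 TPM in dK9.1 and 48.1, 59.8 and 66.0 TPM in dK9.2. On day 4 they held 17.2, 27.2 and 30.7 TPM and 16.1, 15.9 and 19.0 TPM, and on day 6 17.3 and 24.0 TPM and 18.5 and 20.5 TPM. On both days every clone library lay above every E14Tg2a library, as 1.63% of all genes did on day 4 and 12.8% on day 6. The differences did not pass the test (0.49 on day 4, SE 0.23, adjusted p = 0.306, and 0.63 on day 6, SE 0.28, adjusted p = 0.239). Undifferentiated dK9.1 differed from E14Tg2a by 0.30 (SE 0.16, adjusted p = 0.237).

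By day 8 the order had turned, with 9.92, 16.4 and 8.43 TPM in dK9.1 and 9.26, 6.19 and 4.997 TPM in dK9.2. The 3 libraries of dK9.2 lay below the 3 of E14Tg2a, while dK9.1 overlapped with replicate 3 of E14Tg2a. The share of all genes with such a gap for dK9.2 alone was not counted. For both clones together, 0 of 8 genes lay wholly above or below E14Tg2a on day 8 (5.44% and 7.99% of all genes). The change of Tubb3 from day 0 was -2.38 in dK9.1 (SE 0.27, adjusted p = 7.15e-08) and -2.94 in dK9.2 (SE 0.27, adjusted p = 1.75e-09). The clones' mean differed from E14Tg2a by -0.94 (SE 0.23, adjusted p = 0.0051), under the size limit, and passed without replicate 3 of E14Tg2a (-1.34, adjusted p = 0.000334), replicate 2 of dK9.1 (-1.07) or replicate 1 of dK9.2 (-1.05). It was smallest without replicate 1 of E14Tg2a (-0.72), and the highest adjusted p without 1 library was 0.0736.

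Alone, dK9.2 passed (-1.28, SE 0.27, adjusted p = 0.00179), with -1.67 to -1.06 over the left-out libraries. dK9.1 differed by -0.61 (SE 0.27, adjusted p = 0.145), and passed without replicate 3 of E14Tg2a (-1.001, adjusted p = 0.0147), while without replicate 1 of E14Tg2a the difference was -0.38 and the highest adjusted p without 1 library was 0.463. From day 6 to day 8 Tubb3 fell in dK9.2 (-1.43, SE 0.30, adjusted p = 0.00257), but not with only the compared libraries in the fit (adjusted p = 0.0537).

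Between days 0 and 8 Tubb3 moved further down in the clones than in E14Tg2a, a difference of -1.19 on the log2 scale (SE 0.33, adjusted p = 0.0296). The call was lost without E14Tg2a replicate 1 of day 8 (-0.96, adjusted p = 0.0724), replicate 2 of day 8 (-1.02, adjusted p = 0.139), replicate 2 of day 0 (-1.14, adjusted p = 0.0801) or replicate 3 of day 0 (-1.27, adjusted p = 0.0575). It was also lost when the libraries of days 4 and 6 did not enter the fit (adjusted p = 0.0870), as was the call of dK9.2 on day 8 when the other libraries did not (adjusted p = 0.0874).

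Map2 (chr1:66175273-66442583, plus strand), for the dendrite protein, had the smallest ratio between groups. In E14Tg2a it was at 5.78, 3.45 and 1.93 TPM on day 0, 3.11 to 3.82 TPM on day 4, 4.10 and 5.11 TPM on day 6 and 3.25, 1.75 and 1.15 TPM on day 8. The groups overlapped between day 0 and every later day. The change to day 8 was -0.60 (SE 0.29, adjusted p = 0.0740), and -0.30 without replicate 1 of day 0 (adjusted p = 0.407). In dK9.1 Map2 went from 5.91, 6.95 and 5.86 TPM on day 0 to 1.63, 2.17 and 4.53 TPM on day 8 and passed as lower (-1.01, SE 0.29, adjusted p = 0.00491). It came under the size limit without replicate 1 of day 8 (-0.79), replicate 2 of day 8 (-0.92) or replicate 2 of day 0 (-0.94). In dK9.2 it went from 2.95, 3.86 and 3.39 TPM to 4.38, 2.45 and 3.87 TPM, a change of 0.03 (SE 0.29, adjusted p = 0.940). On day 0 the dK9.1 libraries lay above those of dK9.2 and E14Tg2a, but only just above the latter (5.86 against 5.78 TPM). The share of all genes with such a gap for dK9.1 alone was not counted. The difference from E14Tg2a was 0.70 (SE 0.26, adjusted p = 0.103), and passed without replicate 1 of E14Tg2a (1.0003, adjusted p = 0.0131), and was 0.39 without replicate 3 of E14Tg2a (adjusted p = 0.268).

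The 12 group means were also put in order, and the libraries of neighbours in that order were compared. For Tubb3 the 3 day 0 groups stood first and their libraries did not overlap with the next group, dK9.1 on day 4. For Sox11 the means stood in the order of days 8, 6, 4 and 0, with a gap between the libraries of day 6 and day 4 and of day 4 and day 0 and none between days 8 and 6. For Nes a gap lay between dK9.1 on day 8 (28.0 ± 2.27 TPM, SD, n = 3) and E14Tg2a on day 8 (16.3 ± 7.46 TPM, SD, n = 3), which stood next in the order, but dK9.2 on day 8, ranked above both, reached down to 21.8 TPM and overlapped with E14Tg2a. For Map2 each group overlapped with the next in the order.

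Over the 12 group means of log2(TPM + 1), Sox11 and Nes had a Pearson correlation of 0.92, and Tubb3 was opposed to Sox11 (-0.89), Hes5 (-0.84) and Nes (-0.84). Sox1 correlated with none of the other members beyond 0.33 in size. The points share the course of days and the libraries within each group, so these values describe likeness of shape and carry no test. Among all genes, the closest to Sox11 were Pcbp4 (0.99), Rhobtb3 (0.99) and Faxc (0.99), and the closest to Nes were Inava (0.99), Cachd1 (0.99) and Lin28a (0.98). For Tubb3 they were Ccndbp1, Alg1 and Tbc1d10a (each 0.96 to 0.97), for Ncam1 Esyt1, 5730455P16Rik and Heatr5a (0.98 to 0.99), and for Pax6 Rapsn, Gm45205 and Gpr19 (0.93 to 0.94). For Sox1 they were Pms2, E230016M11Rik and Ppard (0.87 to 0.91), for Map2 Gm7846, Xpo6 and Trmt61a (0.90 to 0.94), and for Hes5 Atad1 and Nfkbiz (0.88 to 0.90).

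Several of the 8 genes have close family members that were more abundant in these cells. Of 28 such genes on the list, 23 were among the genes analysed, and from day 0 to day 8 in E14Tg2a 5 were higher and 4 lower, or 21.7% and 17.4% beside 15.9% and 11% of all genes. Tubb5, the beta-tubulin of dividing cells, stood at 878 ± 42.2 TPM on day 0 and 1152 ± 99.98 TPM on day 8 in E14Tg2a (SD, n = 3), where Tubb3 stood at 50.6 ± 5.33 and 18.8 ± 7.91 TPM. Tubb2b, another neuronal beta-tubulin, fell like Tubb3, from 248 ± 15.9 to 105 ± 26.3 TPM (log2 fold change -1.26, SE 0.19, adjusted p = 4.84e-06). Tubb4a, a beta-tubulin of the brain, had lower means than Tubb3 on days 0 and 8 and moved the other way, from 1.14 ± 0.516 TPM on day 0 to 8.18 ± 3.58 TPM on day 4, where it passed as higher (2.04, SE 0.40, adjusted p = 0.000429), and 3.27 ± 1.71 TPM on day 8 (0.95, SE 0.40, adjusted p = 0.0420, under the size limit). In the clones it passed as higher on day 8 (1.38 in dK9.1, adjusted p = 0.00539, and 1.63 in dK9.2, adjusted p = 0.00122). Tubb4b stood at 573 ± 15.8 and 387 ± 16.7 TPM (-0.57, SE 0.10, adjusted p = 1.48e-05, under the size limit). Tubb6 rose, from 45.5 ± 12.01 to 161 ± 12.8 TPM (1.83, SE 0.18, adjusted p = 6.67e-09). The beta-tubulins therefore did not share a direction, and Tubb2a, at 33.3 and 33.2 TPM in E14Tg2a, was at 19.0 ± 3.62 TPM in dK9.1 and 15.4 ± 2.35 TPM in dK9.2 on day 8 (-0.84 against E14Tg2a, SE 0.18, adjusted p = 0.00173, under the size limit).

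Among SOX genes, Sox2, a factor of both ES cells and neural progenitors, stood at 328 ± 23.2 TPM in undifferentiated E14Tg2a and 20.4 ± 2.04 TPM on day 8, against 4.43 ± 1.87 and 0.348 ± 0.243 TPM for Sox1 (SD, n = 3). On day 8 Sox2 was higher in the clones (69.2 ± 52.5 TPM in dK9.1 and 58.5 ± 34.4 TPM in dK9.2, log2 difference 1.41, SE 0.29, adjusted p = 0.0012). Sox3, which acts with Sox1 and Sox2, rose to 4.15 ± 1.89 TPM in E14Tg2a (1.12, SE 0.35, adjusted p = 0.0077). Sox4, the closest relative of Sox11, rose with it, from 22.6 ± 1.39 to 59.9 ± 9.03 TPM (1.36, SE 0.14, adjusted p = 1.10e-08), and Sox12 stood at 23.6 ± 1.78 and 28.6 ± 4.95 TPM without passing (0.26, adjusted p = 0.144).

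Hes1, the Notch target of many tissues, was 27.6 ± 2.60 TPM on day 0 and 49.9 ± 19.5 TPM on day 8 in E14Tg2a (0.77, SE 0.27, adjusted p = 0.0177, under the size limit), far above Hes5. Hes6 held 19.1 ± 5.04 and 22.1 ± 1.93 TPM. Among intermediate filaments Vim, of mesenchyme and progenitors, rose from 78.6 ± 7.18 to 790 ± 216 TPM (3.28, SE 0.36, adjusted p = 2.42e-08), while the neuronal filament gene Ina fell from 13.5 ± 2.54 to 1.16 ± 0.927 TPM (-2.82, SE 0.34, adjusted p = 1.18e-07). On day 8 Vim was lower in the clones (-1.12, SE 0.31, adjusted p = 0.0120) and Ina higher (1.16, SE 0.29, adjusted p = 0.00675). With Sox2, that made 2 of the 23 family members higher and 1 lower in the clones, or 8.7% and 4.35%. Over all genes the shares were 0.826% and 3.42%. Map4 and Map1b, microtubule proteins like Map2, stood at 66.0 ± 14.2 and 9.81 ± 1.80 TPM on day 0 and 92.1 ± 9.12 and 22.1 ± 6.78 TPM on day 8, and Map1b passed as higher (1.07, SE 0.24, adjusted p = 0.000474). Mapt, which codes for tau, the microtubule protein of axons, went the other way, from 9.2 ± 3.59 to 1.70 ± 0.882 TPM in E14Tg2a (-1.90, SE 0.29, adjusted p = 3.90e-06) and from 13.3 ± 2.92 to 1.01 ± 0.0751 TPM in dK9.2 (-2.82, SE 0.29, adjusted p = 1.36e-08).

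**Figure D3:**
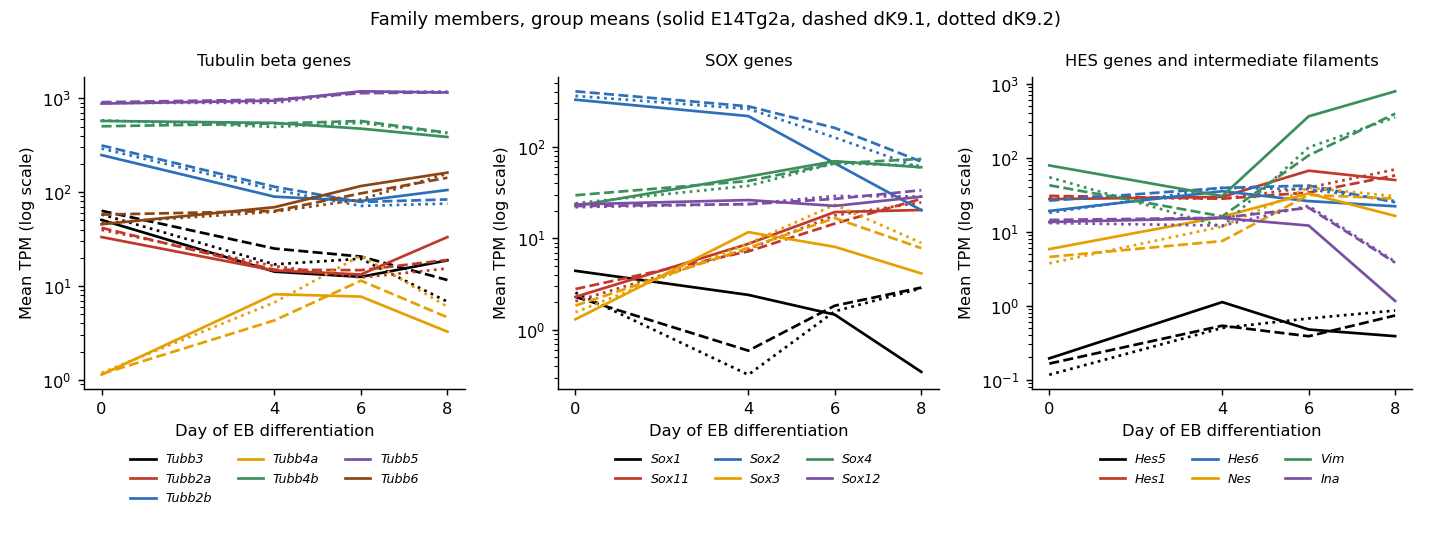
Group mean TPM (vertical axes on a log scale) of family members against the day of EB differentiation, with solid lines for E14Tg2a, dashed for dK9.1 and dotted for dK9.2. On day 8 Sox1 and Hes5 lie below the other plotted genes of their panel and Tubb4a lies below Tubb3, and in E14Tg2a Tubb2b falls with Tubb3 while Tubb6 rises.

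Other genes of neural development were described by lists, whose counts between days 0 and 8 in E14Tg2a stand beside 15.9% of all genes called higher and 11% called lower. Of 35 neurectoderm and progenitor genes, 22 were among the genes analysed, with 9 higher and 6 lower between days 0 and 8 in E14Tg2a. Their median log2 fold change was 0.69, against 0.05 over all genes. Their summed TPM nevertheless fell, from between 484 and 518 TPM on day 0 to between 174 and 193 TPM on day 8. Sox2 alone had a day 0 mean of 328 TPM. The largest changes were those of Gbx2 (-4.37) and Sox2 (-3.95), which undifferentiated ES cells also express, and of Meis2 (3.76) and Irx3 (3.33), patterning factors also used outside the nervous system. Of 28 proneural and early neuronal regulators, 9 were among the genes analysed, 3 higher and 3 lower: Neurod1 (-3.22) and Elavl3 (-1.81) fell and Isl1 (3.21) and Prox1 (1.75), which heart, vessel and liver precursors use as well, rose. Of 31 genes of the neuronal cytoskeleton, axon and synapse, 28 were analysed, 4 higher and 7 lower, with a median of -0.04. Nefh (-3.42), Ina (-2.82), Stmn2 (-2.80) and Chga (-2.18) led and fell like Tubb3, while Tuba1a (1.94), Gap43 (1.36), Dpysl5 (1.18) and Map1b (1.07) rose. Summed over the list, E14Tg2a held 880 to 1034 TPM on day 0 and 1281 to 1694 TPM on day 8.

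Of 28 genes of the Notch pathway, which drives Hes5, 26 were analysed and 9 were higher and 4 lower in E14Tg2a on day 8. Dlk1 (6.00), a ligand-like protein of mesoderm and liver, Hey2 (3.20) and Hey1 (2.85), Notch targets of vessels and heart, and the coactivator Maml3 (2.48) rose most. Of 20 neural crest and glial genes, 12 were analysed, 4 higher and 1 lower, led by Snai2 (4.84), Ets1 (3.72), Foxd3 (-3.29) and Tfap2a (1.45). Snai2 and Ets1 are also mesenchyme and vessel genes, and Foxd3 is a gene of ES cells. The same EBs carried RNA of other tissues: 13 of 16 mesoderm genes, 9 of 13 heart muscle genes, 12 of 13 vessel and blood genes and 12 of 14 extra-embryonic endoderm genes were higher on day 8 in E14Tg2a, and 14 of 15 pluripotency genes were lower.

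Between the clones and E14Tg2a on day 8, 6 of 22 neurectoderm genes were higher and 0 were lower, beside 0.826% of all genes called higher and 3.42% called lower. Among them were Gbx2 (1.82), Pou3f1 (1.61), Zic2 (1.59), Sox2 (1.41) and Zic5 (1.25), and the median of the list was 0.68 against -0.00 over all genes. ES cells also express Gbx2 and Sox2, and the epiblast Pou3f1 and Zic2. The count was 4 to 8 over the left-out libraries and 2 when only the compared groups entered the fit. In the same comparison 9 of 15 pluripotency genes were higher, among them Sox2, which is on both lists, Nanog (1.79), Pou5f1 (1.52) and Tdgf1 (1.51), and 0 were lower.

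In the other neural lists fewer genes passed: 1 of 9 proneural genes was higher, Eomes (1.72), which the primitive streak also expresses, and 2 of 28 neuronal genes, Gad1 (1.19) and Ina (1.16). Of the Notch genes Dll3 (1.74) and Lfng (1.16) were higher and Dlk1 (-1.51) lower, and of the crest and glial genes Foxd3 (1.001) was higher and Snai2 (-2.004) lower. Among the genes of other tissues, 6 of 13 heart muscle, 11 of 13 vessel and blood and 9 of 14 extra-embryonic endoderm genes were lower in the clones, led in the last list by Ttr (-4.81), Afp (-4.40), Apoa1 (-3.62) and Hnf4a (-2.94). Of the 6 heart muscle genes, Myh6 (-1.34) and Myh7 (-1.39) lie between 50 and 80 Mb on chromosome 14, a segment known from earlier results of these data. There 237 of 261 genes were lower in the clones on day 8 and 242 of 261 on day 0, with a median log2 difference of -0.67 and -0.52 against -0.00 and 0.05 over all genes. Gata4 and Sox7 of the extra-embryonic endoderm list, which did not pass, lie there as well, and so do Ebf2, Stmn4, Nefl and Nefm of the neural lists. None of the 8 neural lineage genes does. Of 16 mesoderm genes 3 were higher, T (2.70) among them, and 5 lower, Postn (-4.61), Col3a1 (-3.52) and Col1a1 (-3.05) among them.

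Most of these list counts were lower in a fit of only the compared libraries, which holds fewer samples. There, 0 proneural, 1 neuronal, 0 Notch, 0 crest and glial, 2 mesoderm, 1 vessel and blood and 1 pluripotency gene passed. Without replicate 2 of E14Tg2a on day 8, 0 proneural, 0 neuronal, 0 Notch, 1 crest and glial, 3 mesoderm and 3 vessel and blood genes did. The Notch count was 6 without replicate 2 of either clone, and 3 heart muscle genes passed among genes with a group mean of 5 TPM or more.

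**Figure D4:**
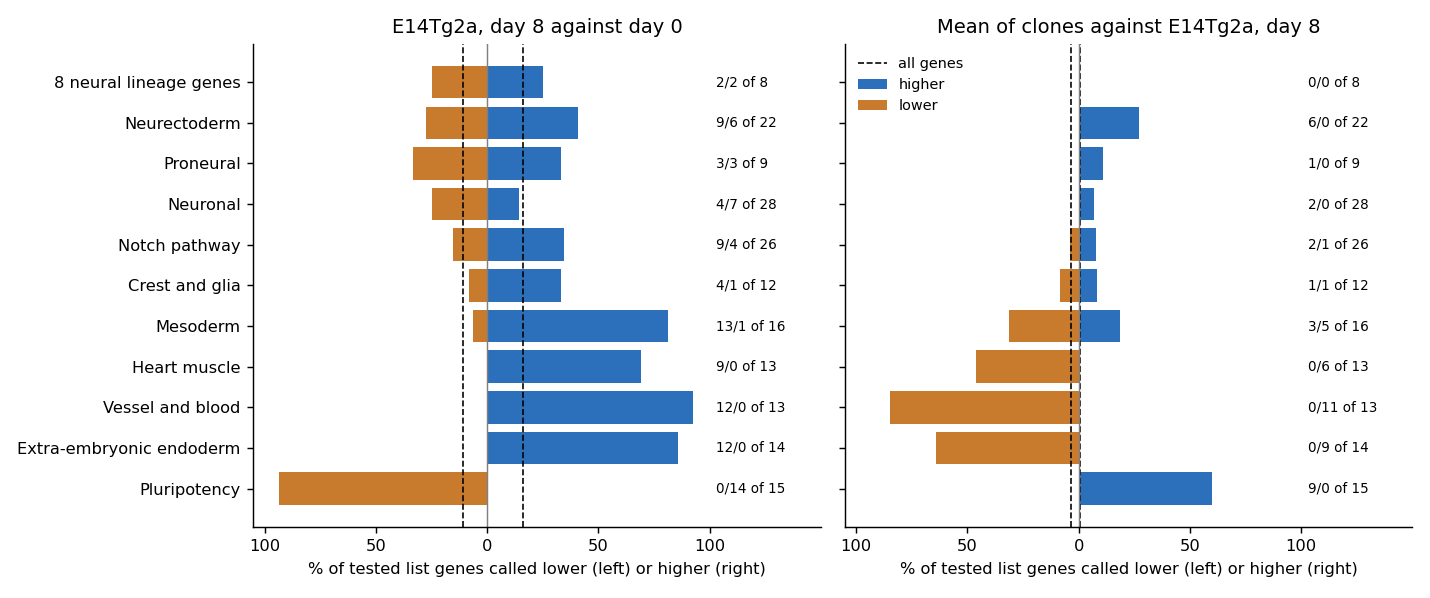
Share (%) of the analysed genes of each list that passed as higher (right, blue) or lower (left, orange), on day 8 against day 0 in E14Tg2a and in the clones against E14Tg2a on day 8; dashed lines mark the shares over all genes and the numbers give higher/lower of analysed. Of the 8 neural lineage genes, 2 were higher and 2 lower over time, and none passed between the clones and E14Tg2a.

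The day 8 libraries put the members beside these lists. Summed over its genes, the pluripotency list held 454 to 561 TPM in E14Tg2a, 842 to 1869 TPM in dK9.1 and 1008 to 1469 TPM in dK9.2, and the neurectoderm list 174 to 193, 276 to 487 and 237 to 458 TPM. On both lists every clone library lay above every E14Tg2a library. The extra-embryonic endoderm list held 531 to 664 TPM in E14Tg2a and 82.9 to 240 TPM in the clones. Replicate 3 had the highest Sox1 and the highest neurectoderm sum of each clone, while its pluripotency sum was the highest in dK9.1 (1869 TPM) and the middle one in dK9.2 (1213 TPM). Replicate 3 also had the lowest mesoderm sum of each clone, with 223 TPM against 741 and 777 TPM in dK9.1 and 433 TPM against 722 and 781 TPM in dK9.2. Its extra-embryonic endoderm sum was the lowest too, but in dK9.2 only slightly (114 against 129 and 147 TPM). In E14Tg2a replicate 3 was also the highest of day 8 for Sox1, Pax6 and Hes5 (0.543, 2.11 and 0.565 TPM). There its pluripotency and extra-embryonic endoderm sums were the lowest (454 and 531 TPM). Its neurectoderm and mesoderm sums were the middle ones (178.5 and 1139 TPM). The part of these cell types in the values of Sox1, Pax6 and Hes5 was not tested. The summed neuronal list of day 8 held 1110 to 1392 TPM in dK9.1 and 1012 to 1609 TPM in dK9.2, and both overlapped with E14Tg2a.

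**Figure D5:**
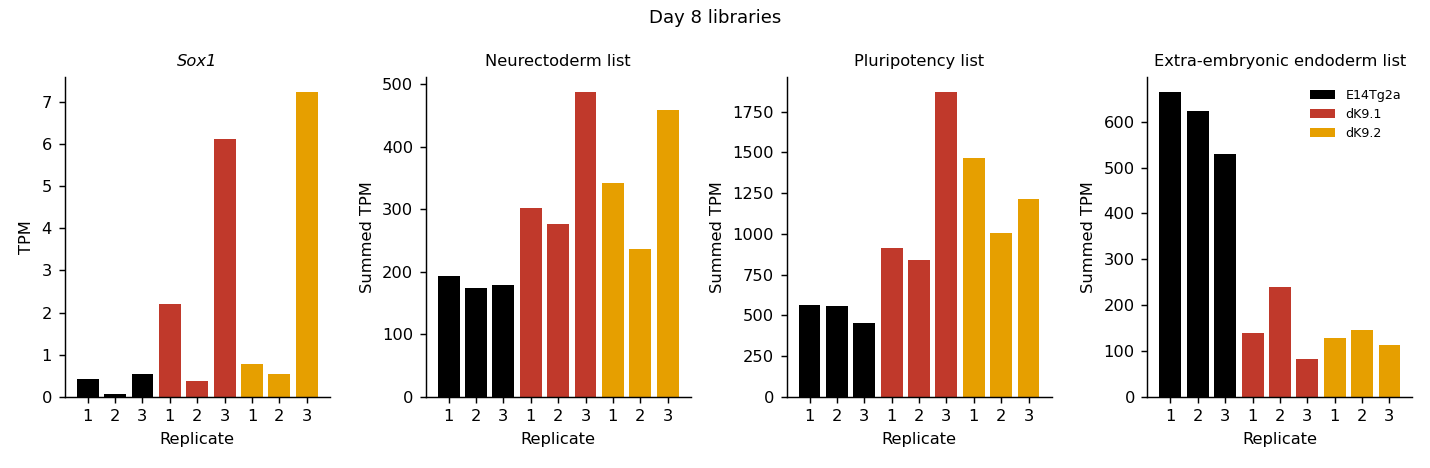
Bars of each day 8 library (replicates 1 to 3 of E14Tg2a, dK9.1 and dK9.2) for Sox1 in TPM and for the summed TPM of the neurectoderm, pluripotency and extra-embryonic endoderm lists, each axis from 0. Sox1 reached 6.13 and 7.23 TPM in replicate 3 of the clones, which also held the highest neurectoderm and the lowest extra-embryonic endoderm sums of their clone, the latter only slightly lower in dK9.2. Replicate 3 was also the highest of E14Tg2a for Sox1, at 0.543 TPM.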

How the data were processed

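Poly-A enriched, strand-specific RNA-seq libraries of E14Tg2a, dK9.1 and dK9.2 cells were analysed from the table deposited for the series. Per the labels and the study's methods, the authors aligned reads to mm10 with STAR and estimated TPM per gene with RSEM. Tool versions and the annotation are not given in the sources used here, and libraries that stood apart in a principal component analysis were left out by the authors, with no statement on whether this is why day 6 lacks replicate 1. The table also holds 22 columns of the authors' DESeq comparisons, deposited as log2 fold changes and FDR values, which were not used. The 33 value columns were matched to libraries by title. The listed TPM of a library summed to between 994284 and 998266, and each of the 16336 genes reached a mean of 1 TPM in one or more groups.

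TPM are not counts, so log2(TPM + 1) values were tested with limma 3.58.1 (trend, R 4.3.3) in place of the count test of the study's methods. A single fit over all 33 libraries and 12 groups gave the comparisons of days and of lines, with calls at an adjusted p under 0.05 and an absolute log2 fold change above 1, and the 9 libraries of day 0 were fitted separately with a limit of 0.3. The procedure was tested on simulated data, with independent noise in each library and changes planted only in genes of medium or high level. That test does not cover genes as low as Sox1, Pax6, Hes5, Ncam1 and Map2, or libraries that vary together. This fit had no term for the replicate number, although the lines were differentiated in parallel. Its p-values thus rest on the spread between the 3 libraries of a group (2 on day 6), pooled over the 12 groups, for 1 clone each. A fit with the replicate number as a block was an alternative. The others were a pseudocount of 0.1, a minimum mean of 5 TPM, no minimum for day 0, rescaling by median ratios, a fit of only the groups compared, all 33 libraries for day 0, and leaving out each library in turn. Leaving out a library on day 6 leaves 1 in that group, which is then assumed to vary like the others.

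The 8 genes and all gene lists were chosen with earlier results of these data known. The text names the 8 genes, Nanog, up to 4 called genes of largest absolute log2 fold change per list and comparison, family members with a group mean of 10 TPM or more, and for each of the 8 up to 3 genes with the highest Pearson correlation over the group means. Sox3, Zic5, Tuba1a, Gap43 and Dpysl5 were picked after their values were seen, and some genes that the rule names are not reported here. Positions are from GENCODE M21 on mm10, and figures were drawn with matplotlib 3.10.9 under Python 3.11.15.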

Additional observations from a re-analysis of the deposited data

Results flagged for a closer look

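Tubb3 moved further down between days 0 and 8 in the clones' mean than in E14Tg2a, by a test of that difference itself (-1.19 on the log2 scale, SE 0.33, adjusted p = 0.0296, limma). The day 8 library was lower than that of day 0 in 3 of 3 numbers of each line, E14Tg2a included, which does not bear on the difference. The call was lost with only the compared groups in the fit. Leaving out 1 of 4 E14Tg2a libraries ended the call (replicates 1 and 2 of day 8, -0.96 and -1.02, and replicates 2 and 3 of day 0, -1.14 and -1.27).

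Ncam1 moved in opposite ways between day 0 and day 8: it was higher in 3 of 3 same-numbered E14Tg2a libraries (mean log2 change 0.52) and lower in 3 of 3 of dK9.1 (-0.40) and in 3 of 3 of dK9.2 (-0.44). The difference from E14Tg2a was -0.92 in dK9.1 and -0.96 in dK9.2, which was not tested for single clones, and the test for the clones' mean did not pass (-0.94, SE 0.36, adjusted p = 0.113, limma). None of the changes in a line passed the test. Some moves were small: replicate 1 went from 4.32 to 4.45 TPM in E14Tg2a and from 5.15 to 4.97 TPM in dK9.1. The share of all genes with such opposite signs was not counted, and a number is not known to mark a shared assay. Single day 8 libraries carried much of these values: the E14Tg2a change was 0.12 without replicate 2, the change in dK9.1 -0.0899 without replicate 3, that in dK9.2 -0.18 without replicate 1, and the difference for the clones' mean -0.54 without replicate 2 of E14Tg2a (adjusted p = 0.458).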

How the results depend on the processing

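Depth is unknown, so what it limits cannot be stated beyond the spread between libraries, and the low genes Hes5, Sox1 and Pax6 depend on the pseudocount. Of 579 values of the 8 genes under other settings, 1 reversed and 20 changed side of the limits. The count of the 8 genes called was 2 with a pseudocount of 0.1, 0 after median ratio rescaling and 0 with only the compared groups for day 8 against day 6 in E14Tg2a (1 as reported). For the same days it was 1 with that pseudocount and 1 with the replicate block in dK9.1 (0 as reported), and 2, 2 and, with only the compared groups, 0 in dK9.2 (1 as reported). For day 6 against day 4 it was 2 with the replicate block in dK9.1 (1 as reported) and 1 with only the compared groups in dK9.2 (2 as reported). It was 5 with the pseudocount of 0.1 for day 8 against day 0 in dK9.2 (3 as reported), 2 with that pseudocount and 1 with the replicate block for the clones on day 8 (0 as reported), and 0 with only the compared groups for the difference between changes (1 as reported). The study states that the lines were differentiated in parallel, but not that a number marks a shared assay. Deviations from the group mean of libraries with the same number and day correlated between lines (median r 0.222, above 0.1 in 31 of 33 pairs, lowest -0.0129), and 33 of 33 libraries correlated best with their own number, a hint from the data and not the design. With the replicate block, Sox1 in the clones on day 8 passed (1.17, adjusted p = 0.0451), as did Tubb3 in dK9.1 on day 0 (0.30, adjusted p = 0.0343), Pax6 from day 4 to day 6 in dK9.1 (-1.01, adjusted p = 0.0351) and Ncam1 from day 6 to day 8 in dK9.1 (1.05, adjusted p = 0.0162) and dK9.2 (1.004, adjusted p = 0.0221). It called 145 of all genes in both clones on day 0 (11 as reported), and changed no other count of the 8 genes by over 1.5 times. Median ratio rescaling turned Map2 in the clones on day 4 to 0.0303 (-0.04 as reported).

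Of 773 values with 1 library left out, 27 reversed and 51 changed side. The counts of the 8 genes then ranged from 1 to 2 (day 6 against day 4) and 0 to 2 (day 8 against day 6) in E14Tg2a, 0 to 2 and 0 to 3 in dK9.1, 0 to 2 and 1 to 2 in dK9.2, 0 to 2 for the clones on day 8, 0 to 2 for the difference between changes and 0 to 1 for both clones on day 0. Log2 changes from day 0 to day 8 that turned sign ranged from -0.65 to 0.53 for Sox1 in dK9.1, from -1.10 to 0.11 for Sox1 in dK9.2 and from -0.10 to 0.22 for Map2 in dK9.2. Differences of the clones' mean that turned ranged from -0.55 to 0.0508 for Pax6 and -0.12 to 0.067 for Map2 on day 4, from -0.0883 to 0.27 for Nes and -0.14 to 0.24 for Hes5 on day 6, and from -0.0139 to 0.53 for Pax6 on day 8. Differences between changes that turned ranged from -0.0596 to 0.37 for Sox11 and -0.19 to 0.42 for Map2. On day 0 they were -0.46 to 0.41 for Nes in dK9.1 and, in dK9.2, -0.20 to 0.23 for Sox11, -0.71 to 0.16 for Nes and -0.33 to 0.28 for Map2. Counts over all genes moved by over 1.5 times as well. They ranged from 872 to 1647 (day 6 against day 4 in E14Tg2a, 1524 as reported), 39 to 1496 (the same in dK9.1, 875), 232 to 1643 (day 8 against day 6 in dK9.1, 1064), 239 to 1261 (the same in dK9.2, 851), 38 to 181, 57 to 532 and 372 to 953 (clones on days 4, 6 and 8; 130, 265 and 693), 168 to 752 (difference between changes, 499) and 1 to 135 (both clones on day 0, 11). The cause was not tested.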
